A study of Mus musculus with 4 samples.

Results

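The Schlafen genes are a family of interferon-inducible genes that lie side by side on mouse chromosome 11. Their transcript levels were followed through 4 RNA-seq libraries of macrophages with and without the transcription factor Batf2. The 7 members described, Slfn1, Slfn2, Slfn3, Slfn4, Slfn5, Slfn8 and Slfn9, were chosen by gene symbol and not by their levels, out of 24104 gene symbols and unnamed accessions in the deposited tables. All 7 were found in all 4 libraries with FPKM of at least 1, so none was lost to the filter on low values. FPKM is the number of fragments per kilobase of transcript and per 1000000 mapped reads, so it can be compared between genes of different length.

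The cells were bone marrow-derived macrophages (BMMφ) from C57BL/6 mice, cultured with the growth factor GM-CSF (10 ng/ml) and taken after 6 days as the cells that adhered. Cultures were Batf2+/+ (WT) or Batf2-/- (KO, no working Batf2 gene). All 4 groups, the controls included, are labelled as treated with 10 ng/ml of interferon-γ (IFN-γ) for 4 h, and LPS, a bacterial cell wall component, was then given at 100 ng/ml for 0 h or 3 h. This gave 4 groups, each genotype at each time, with 1 library per group. How many mice gave each culture, their age and the way Batf2 was deleted were not stated in the labels. With 1 library per group no test, standard error or p-value was possible. The interval printed beside a gene's FPKM is the deposited 95% interval, re-centred on the FPKM while its width as a share of the value was kept, and with the half-widths of several entries of a gene combined in quadrature. Re-centring mattered most for Slfn2, whose FPKM lay above its deposited interval in all 4 libraries. It was 1.12 to 1.13 times the midpoint, where the half-widths were 1.65% to 3.83%. The FPKM of Slfn1 at 3 h in both genotypes and of Slfn3 in KO at 3 h also lay above the deposited interval. That of Slfn5 in KO at 3 h lay below it. Intervals of a single transcript entry are printed as deposited. Those of folds and of differences between responses were derived by combining the relative half-widths of the libraries compared in quadrature on a log scale. All of them cover counting error only, not the spread between cultures.

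Schlafen proteins share an N-terminal core domain. The short forms Slfn1 and Slfn2 consist of little more than this core, the intermediate forms Slfn3 and Slfn4 add a linker domain, and the long forms Slfn5, Slfn8 and Slfn9 carry in addition a C-terminal region that resembles helicases. In immune cells the family is known for induction by type I interferon, through a transcription factor complex that includes Stat2 and Irf9, and for effects on cell quiescence, on differentiation and on the cleavage or protection of transfer RNA.

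That complex binds a sequence known as the interferon-stimulated response element (ISRE), and the promoter windows in which motifs were found are shown first. Whether a motif goes with the size of the rise after LPS was not tested. The windows run from 250 bases before to 50 bases after each RefSeq start (GRCm38.p6) and were available for 7 of 7 members. Bases that lie in an exon of a GENCODE M21 transcript are left out of the sequences printed. In Slfn4 the bases from the RefSeq gene start onward are left out as well. All are given 5′ to 3′ on the strand of the gene, in lower case, and the capitals mark the ISRE core (GAAA, then NN, then GAAA, N being any base, or its reverse complement) or, in Slfn4, the AP-1 motif TGANTCA, the site of Batf and Jun proteins. They lie at chr11:82951852-82951984 on the + strand (Slfn5), chr11:83020811-83021060 on the − strand (Slfn8), chr11:82991831-82992080 on the − strand (Slfn9) and chr11:83174936-83175171 on the + strand (Slfn4).
Slfn5: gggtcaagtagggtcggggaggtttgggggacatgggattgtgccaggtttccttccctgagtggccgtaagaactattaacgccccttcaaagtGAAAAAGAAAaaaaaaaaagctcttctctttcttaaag
Slfn8: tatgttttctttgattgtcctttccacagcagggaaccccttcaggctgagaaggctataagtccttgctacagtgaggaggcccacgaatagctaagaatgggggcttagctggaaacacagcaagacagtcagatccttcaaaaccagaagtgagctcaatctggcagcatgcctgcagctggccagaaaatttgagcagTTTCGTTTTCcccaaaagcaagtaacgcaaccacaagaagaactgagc
Slfn9: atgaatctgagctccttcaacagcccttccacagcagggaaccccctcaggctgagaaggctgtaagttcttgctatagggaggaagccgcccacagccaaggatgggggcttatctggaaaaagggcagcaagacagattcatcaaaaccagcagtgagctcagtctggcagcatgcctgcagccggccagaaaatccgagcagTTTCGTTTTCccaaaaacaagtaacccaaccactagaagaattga
Slfn4: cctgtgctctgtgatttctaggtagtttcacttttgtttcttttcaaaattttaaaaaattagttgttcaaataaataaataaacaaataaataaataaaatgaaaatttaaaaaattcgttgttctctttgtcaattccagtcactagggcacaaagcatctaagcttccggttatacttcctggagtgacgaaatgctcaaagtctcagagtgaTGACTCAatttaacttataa

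The ISRE core was present once in the windows of Slfn5, Slfn8 and Slfn9, that is in the 3 long forms among the members and in none of the 4 short and intermediate ones. The window of Slfn14, a further long form that was close to 0 FPKM here, held no ISRE core and 1 AP-1 match, 134 bases before the start. Over all 32851 windows of 300 bases, 3.44% held it on either strand. In Slfn5 it began 155 bases before the start used (chr11:82951947-82951956). The annotated Slfn5 gene begins 0.753 kb before that start, so the match lies inside the gene. The 117 bases left out of the printed stretch are Slfn5 exon. In Slfn8 it lay 48 bases before the upstream start and 136 bases before the downstream start (chr11:83020849-83020858), and in Slfn9 45 bases before the start (chr11:82991866-82991875). The Slfn8 and Slfn9 windows are close copies of each other, identical at 80.8% of aligned positions, and hold the same 10 bases. The 20 other pairs of members were identical at 46.5% to 53.0%. The AP-1 motif was found in 7.81% of all windows and, among the members, once in Slfn4, 34 bases before its start (chr11:83175152-83175158). The gamma-activated site TTCNNNGAA, known from IFN-γ-responsive promoters, was found in 8.30% of all windows and in none of the 7 members. None of the 3 motifs was found in the windows of Slfn1, Slfn2 and Slfn3, no match overlapped another, and a match or its absence describes only these letters in this window.

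Several facts on the libraries bear on all that follows. Depth, estimated from entries that hold a single read and counted in 1000000 reads, was 24.2 (WT) and 27.5 (KO) at 0 h and 19.9 (WT) and 29.8 (KO) at 3 h. Batf2 itself stood at 2.63 FPKM (WT, 0 h), 234 (WT, 3 h), 0.26 (KO, 0 h) and 10.1 (KO, 3 h), lower in KO at both times. All 8 macrophage markers of the list used were above 1 FPKM in every library, with summed levels of 16148 to 24566 FPKM that Lyz2 dominated. The 10 neutrophil markers found of 11 listed were also above 1 FPKM in every library, with sums of 3747 (WT, 0 h), 5819 (WT, 3 h), 9229 (KO, 0 h) and 5587 FPKM (KO, 3 h). The 7 dendritic markers summed to 492 to 577 FPKM, most of it Itgax, and 4 of them at 0 h and 5 at 3 h were at 1 FPKM or more. In the order WT 0 h, WT 3 h, KO 0 h, KO 3 h, Zbtb46 was at 7.70, 3.89, 4.73 and 3.20 FPKM, Clec9a at 3.71, 9.68, 1.59 and 2.16, and Ccr7 at 1.80, 18.2, 1.88 and 35.2. Xcr1 reached 3.61 (WT) and 4.25 FPKM (KO) at 3 h, and Flt3 was between 0.027 and 0.058. The part of such cells in the Schlafen levels was not tested. The T and NK cell list reached 3.32 to 5.07 FPKM, mostly Cd4, with Ncr1 listed at 0 in 3 of 4 libraries, and the B cell list 0.44 to 1.02 FPKM. The stromal list summed to 33.0, 33.5, 73.8 and 52.7 FPKM and the mast cell and basophil list to 5.47, 14.0, 11.8 and 19.9 FPKM in the order WT 0 h, WT 3 h, KO 0 h, KO 3 h. In the 0 h libraries, which the labels give as IFN-γ-treated, the 12 IFN-γ targets of the list used ranged from 0.12 (Iigp1) to 78.5 FPKM (Cd274) in WT and from 0.094 to 90.1 (the same genes) in KO. Among them Gbp2 was at 49.8 (WT) and 31.6 (KO), Ciita at 18.8 and 9.52, Gbp5 at 3.52 and 2.55 and Cxcl9 at 0.62 and 0.12. At 3 h the list ranged from 26.2 (Ciita) to 2688 FPKM (Gbp2) in WT. Whether the cultures of both times had the same exposure to IFN-γ was not tested, and the labels give no group without it. A part of IFN-γ in the differences between 3 h and 0 h, named after LPS as in the labels, therefore cannot be told apart from that of LPS.

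All 7 Schlafen genes rose after 3 h of LPS, in both genotypes, and no member differed between KO and WT by 2-fold at either time. The rise ranged from 2.55-fold for Slfn3 to 26.4-fold for Slfn8 in WT and from 2.60-fold (Slfn3) to 30.1-fold (Slfn8) in KO. In WT the summed level of the 7 genes went from 168 to 998 FPKM, a 5.94-fold rise, and in KO it went from 175 to 1051 FPKM, a 6.00-fold rise. Slfn5 and Slfn8 moved from the lower ranks of the expressed genes to the upper ones, while Slfn2 was the highest member in every library.

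**Figure D1:**
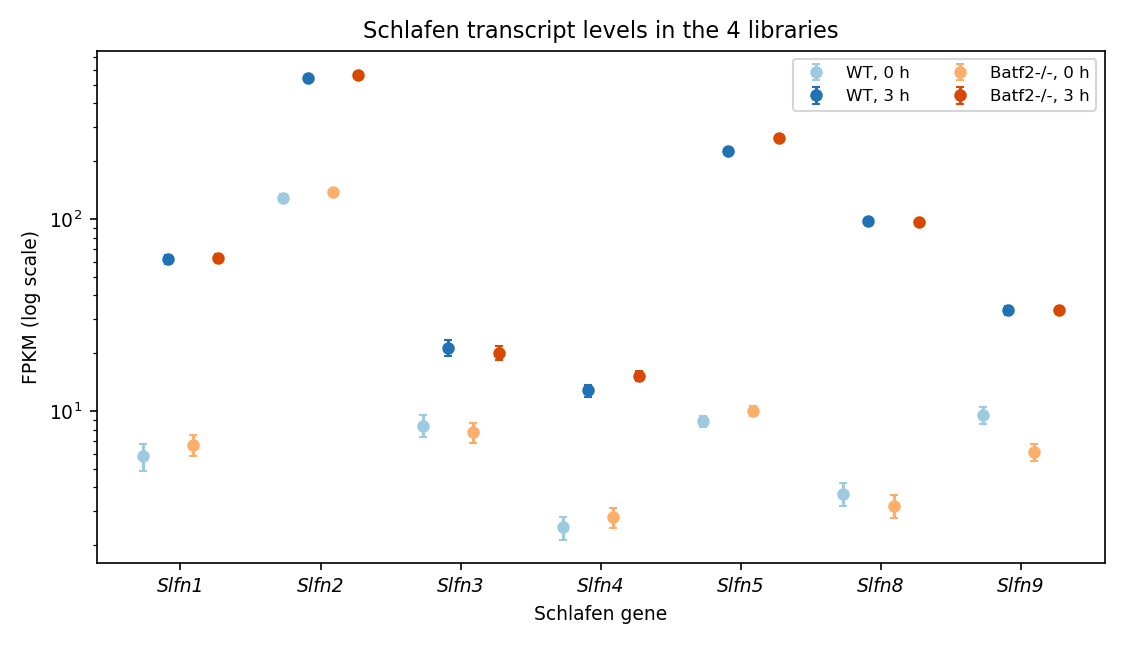
FPKM of the 7 Schlafen genes on a log axis in the 4 libraries (light points 0 h, dark points 3 h, blue WT, orange Batf2-/-), with bars for the 95% interval of counting error. In each gene both 3 h points lie above both 0 h points, and Slfn9 at 0 h, at 9.50 against 6.09 FPKM, shows the widest gap between genotypes.

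Slfn2, a short form whose loss is known to cost T cells and monocytes their quiescence, was the most abundant member. Its level was 129 FPKM (WT, 0 h; interval 124 to 134), 546 (WT, 3 h; 534 to 557), 139 (KO, 0 h; 134 to 144) and 560.2 (KO, 3 h; 551 to 569). Both 3 h libraries were high and both 0 h libraries low, and the intervals of WT and KO overlapped at each time. The rise was 4.22-fold in WT (interval 4.04 to 4.41) and 4.04-fold in KO (3.88 to 4.20). Already at 0 h Slfn2 lay above 95.1% of detected genes in WT and 95.4% in KO, and at 3 h above 98.7% in both. Slfn2 (RefSeq NM_011408) has 2 exons and a coding sequence of 1134 bases and lies on the + strand at chr11:83065112-83070678 (GRCm38).

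Slfn1, the other short form, which was first described as slowing the growth of thymocytes, was far lower at 0 h but rose more steeply. It was listed at 5.81 FPKM (WT, 0 h; interval 4.88 to 6.75), 61.6 (WT, 3 h; 58.2 to 65.0), 6.66 (KO, 0 h; 5.80 to 7.53) and 62.8 (KO, 3 h; 59.6 to 66.0). WT and KO overlapped at each time and the times were well apart. The fold was 10.6 in WT (8.94 to 12.6) and 9.42 in KO (8.19 to 10.8), the third-largest rise of the family. Slfn1 (NM_011407, + strand, chr11:83116845-83122659) has 2 exons and a coding sequence of 1011 bases, identical to that of Slfn2 at 65.0% of aligned positions.

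The intermediate forms were the lowest members at 3 h and included the smallest rise. Slfn3, known from regulatory T cells and from differentiating gut epithelium, stood at 8.40 FPKM (WT, 0 h; 7.29 to 9.50), 21.4 (WT, 3 h; 19.3 to 23.5), 7.73 (KO, 0 h; 6.77 to 8.69) and 20.1 (KO, 3 h; 18.4 to 21.7). The genotypes overlapped at both times, and the fold was 2.55 in WT (2.16 to 3.00) and 2.60 in KO (2.24 to 3.01). Slfn4, a gene of myeloid cells that is lowered as macrophages mature, was the lowest member in all 4 libraries. It was at 2.48 FPKM (WT, 0 h; 2.14 to 2.81), 12.8 (WT, 3 h; 11.8 to 13.7), 2.79 (KO, 0 h; 2.46 to 3.11) and 15.3 (KO, 3 h; 14.4 to 16.2). Only at 3 h were WT and KO apart, with KO the higher. The fold was 5.17 in WT (4.42 to 6.03) and 5.48 in KO (4.82 to 6.24). Slfn3 (NM_011409, + strand, chr11:83191330-83215154) has 3 exons and 1551 coding bases, and Slfn4 (+ strand, chr11:83175186-83190216) has 1806 coding bases. Slfn4 had 2 entries, of which NM_001302559 carried all of the level and NM_011410 was listed at 0 in all 4 libraries.

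Of the long forms, Slfn5 and Slfn8 had the largest rises and Slfn9 a far smaller one. Slfn5, whose human counterpart is a nuclear protein that acts on interferon-driven transcription, was at 8.83 FPKM (WT, 0 h; 8.25 to 9.41), 226 (WT, 3 h; 222 to 229), 10.0 (KO, 0 h; 9.44 to 10.6) and 263 (KO, 3 h; 259.8 to 266). All 4 intervals were apart, with KO above WT at each time. The fold was 25.6 in WT (23.9 to 27.4) and 26.2 in KO (24.7 to 27.8). In WT this took Slfn5 from above 42.9% to above 96.6% of detected genes, and in KO from above 47.7% to above 97.1%. Slfn5 (NM_183201, + strand, chr11:82952102-82964850) has 6 exons and 2652 coding bases.

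Slfn8 belongs with Slfn9 to the long forms closest to the human tRNA-cleaving Schlafen proteins. Its level was 3.70 FPKM (WT, 0 h; 3.19 to 4.20), 97.5 (WT, 3 h; 93.8 to 101), 3.21 (KO, 0 h; 2.77 to 3.66) and 96.7 (KO, 3 h; 93.7 to 99.7). WT and KO overlapped at both times. The fold was 26.4 in WT (22.9 to 30.4) and 30.1 in KO (26.1 to 34.7), the highest of the family in each, although on the log2(FPKM + 1) scale Slfn5 ranked above it. Slfn9 was at 9.50 FPKM (WT, 0 h; 8.53 to 10.5), 33.4 (WT, 3 h; 31.7 to 35.2), 6.09 (KO, 0 h; 5.47 to 6.71) and 33.5 (KO, 3 h; 32.2 to 34.9). The genotypes were apart at 0 h, with WT the higher, and overlapped at 3 h. The fold was 3.52 in WT (3.14 to 3.95) and 5.51 in KO (4.94 to 6.15). Slfn8 (− strand, chr11:83002158-83020810) and Slfn9 (NM_172796, − strand, chr11:82980303-82991830, 5 exons) both have 2730 coding bases, identical at 92.7% of aligned positions. They share the promoter copy shown above, and their folds after LPS in WT were 26.4 and 3.52.

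The outlying Schlafen genes set the frame for these levels. Slfn10-ps, a transcribed pseudogene between Slfn8 and Slfn2 (chr11:83028126-83040533), was at 4.89 FPKM (WT, 0 h), 12.1 (WT, 3 h), 4.89 (KO, 0 h) and 11.1 (KO, 3 h), a 2.48-fold rise in WT and a 2.27-fold rise in KO. Slfn14, a long form of platelet precursors and red cell precursors at the far end of the cluster, was between 0.0096 and 0.027 FPKM in the 4 libraries. Slfnl1, a Schlafen-like gene on chromosome 4, was listed at 0 in both 0 h libraries and at 0.030 (WT) and 0.020 FPKM (KO) at 3 h. Neither reached the filter of 1 FPKM.

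To set the rise beside that of all genes, differences were taken as log2(FPKM + 1) at 3 h minus 0 h, a scale that understates the change of low genes. A gene was counted as changed if it differed by at least 1 on this scale (2-fold), reached 1 FPKM in either library, and had intervals that did not overlap. In WT all 7 members passed as higher, against 7.55% of the 10841 genes tested, and in KO again all 7, against 7.85% of 10960. None passed as lower, where 23.2% of genes tested in WT and 28.0% in KO did. The median difference of the members was 2.07 in WT and 2.29 in KO, while that of all genes tested was -0.54 and -0.64. With the libraries rescaled so that the typical gene did not move, the member medians became 2.61 and 2.87 and all 7 still passed in each genotype. The log2 differences in WT were 4.53 (Slfn5), 4.39 (Slfn8), 3.20 (Slfn1), 2.07 (Slfn2), 1.99 (Slfn4), 1.71 (Slfn9) and 1.25 (Slfn3). In KO they were 4.58 (Slfn5), 4.53 (Slfn8), 3.06 (Slfn1), 2.29 (Slfn9), 2.10 (Slfn4), 2.01 (Slfn2) and 1.27 (Slfn3), so Slfn9 took the place above Slfn4 and Slfn2. Among all genes tested, Slfn5 ranked 75 and Slfn8 ranked 83 in WT by the size of the rise, and Slfn5 ranked 79 and Slfn8 ranked 81 in KO. Slfn3, the member with the smallest rise, ranked 696 in WT and 678 in KO.

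**Figure D2:**
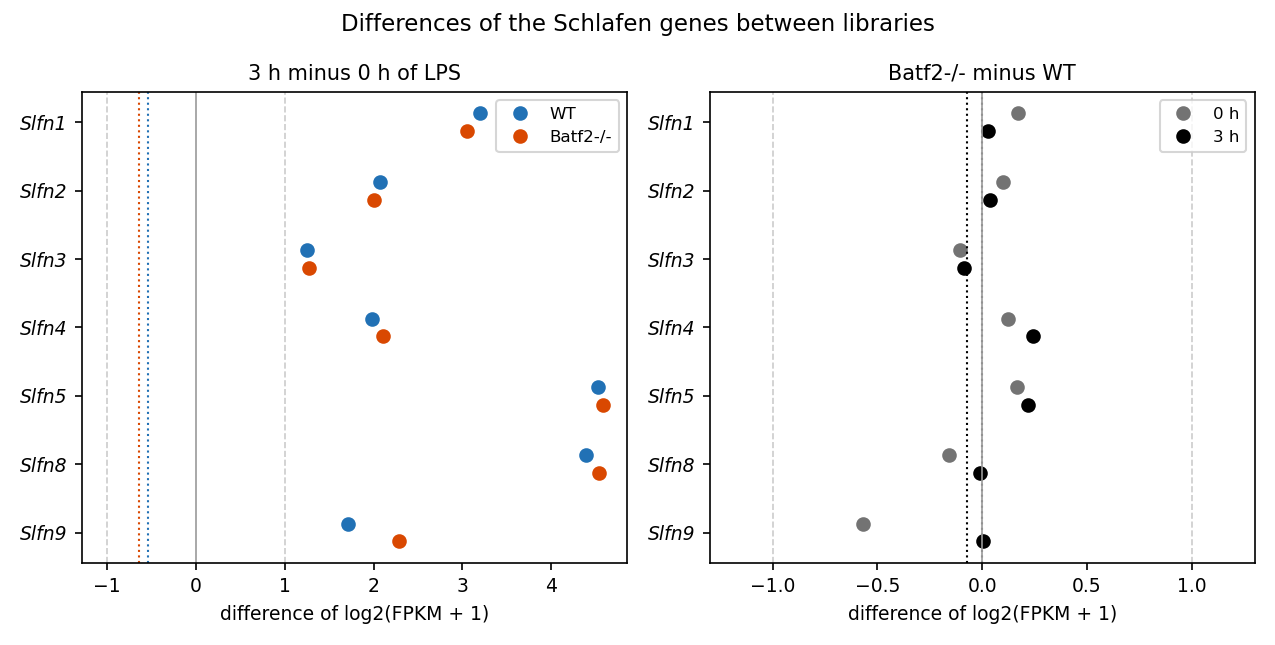
Differences of log2(FPKM + 1) for the 7 genes, on the left 3 h minus 0 h of LPS in WT (blue) and Batf2-/- (orange) and on the right Batf2-/- minus WT at 0 h (grey) and 3 h (black). Dashed lines mark differences of 1 in either direction and dotted lines the median of all genes tested. All points on the left lie beyond 1 and all points on the right within it, with Slfn9 at 0 h the lowest at -0.57.

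The uneven rises changed the make-up of the family's transcripts. At 0 h Slfn2 supplied 77.0% of the summed FPKM of the 7 genes in WT and 79.2% in KO, and at 3 h 54.7% and 53.3%. The share of Slfn5 in WT was 5.25% at 0 h and 22.6% at 3 h, and in KO 5.73% and 25%. For Slfn8 the shares were 2.20% and 9.77% in WT and 1.83% and 9.19% in KO. Slfn1 made up 3.46% and 6.17% in WT, with 3.80% and 5.97% in KO. The shares of Slfn9 and Slfn3 were smaller at 3 h: Slfn9 supplied 5.65% and then 3.35% in WT and 3.47% and then 3.19% in KO, and Slfn3 5.0% and then 2.14% in WT and 4.41% and then 1.91% in KO. Slfn4 stayed between 1.28% and 1.59%. Without Slfn2 the sum was 38.7 FPKM (WT, 0 h), 452 (WT, 3 h), 36.5 (KO, 0 h) and 491 (KO, 3 h).

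**Figure D3:**
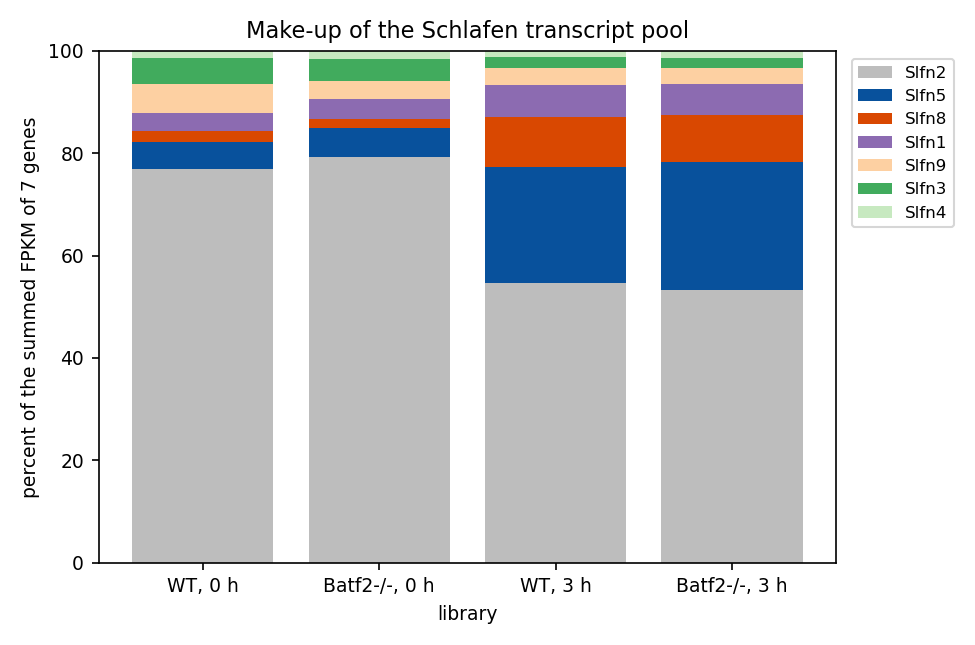
Stacked bars of the percentage of the summed FPKM of the 7 Schlafen genes that each gene supplied in each of the 4 libraries. In WT Slfn2 (grey) shrinks from 77.0% to 54.7%, in Batf2-/- from 79.2% to 53.3%, and Slfn5 (blue) and Slfn8 (orange) widen.

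The order of the members was less firm at 0 h than at 3 h. In WT at 0 h Slfn2 was 13.6 times above the next gene, Slfn9, whose interval overlapped that of Slfn5, and Slfn5 overlapped Slfn3, while Slfn1, Slfn8 and Slfn4 followed with no overlap. In KO at 0 h the order was Slfn2, Slfn5, Slfn3, Slfn1, Slfn9, Slfn8 and Slfn4, with overlaps between Slfn3 and Slfn1, between Slfn1 and Slfn9 and between Slfn8 and Slfn4. At 3 h both genotypes had the order Slfn2, Slfn5, Slfn8, Slfn1, Slfn9, Slfn3 and Slfn4, and no neighbours in it overlapped. Slfn2 then exceeded Slfn5 by 2.42 times in WT and 2.13 times in KO.

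Between genotypes the family's summed FPKM was close to equal, with KO at 1.04 times WT at 0 h and 1.05 times at 3 h. Slfn2 made up most of each sum. Without Slfn2 the sums were 38.7 (WT) and 36.5 FPKM (KO) at 0 h and 452 and 491 at 3 h. None of the 7 members passed the size rule in either direction, at 0 h (against 1.72% of 10843 genes tested) or at 3 h (against 1.47% of 9806). On the log2(FPKM + 1) scale, KO minus WT at 0 h was -0.57 for Slfn9, -0.16 for Slfn8, -0.11 for Slfn3, 0.10 for Slfn2, 0.12 for Slfn4 and 0.17 for both Slfn1 and Slfn5. The median over the members was 0.10 at 0 h and 0.027 at 3 h, and over all genes tested -0.00032 and -0.072. At 3 h the differences were smaller than 0.1 for 5 members: -0.089 (Slfn3), -0.012 (Slfn8), 0.0048 (Slfn9), 0.027 (Slfn1) and 0.038 (Slfn2). Slfn5 and Slfn4 were higher in KO by 0.22 and 0.24. With the libraries rescaled, the member median at 3 h was 0.11 in place of 0.027, with 0.11 for Slfn1, 0.12 for Slfn2, 0.073 for Slfn8, 0.088 for Slfn9, 0.30 for Slfn5, 0.32 for Slfn4 and -0.0074 for Slfn3, so that the sign of Slfn8 turned.

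Intervals that did not overlap, with no minimum size, are common between these libraries: 20.8% of genes tested at 0 h and 27.7% at 3 h. At 0 h they were found for Slfn9, 1.56-fold higher in WT (1.35 to 1.80), and for Slfn5, 1.14-fold higher in KO (1.04 to 1.24). At 3 h they were found for Slfn4, 1.20-fold higher in KO (1.09 to 1.31), and Slfn5, 1.16-fold higher in KO (1.14 to 1.19). So 2 of 7 members had intervals apart at each time, and Slfn5 was the gene found at both. The 0 h difference of Slfn9 was lower than that of all but 2.01% of genes tested. In the same pair of libraries all 10 neutrophil markers found were higher in KO with intervals apart, 5 of them past the size rule (against 1.33% of genes tested as higher) and with a median of 1.11 on the log2 scale, and 5 of 5 stromal markers were higher with intervals apart. In bulk RNA, more cells of a type and more RNA per cell cannot be told apart, and the part of either marker group in the Slfn9 value was not tested. At 3 h the neutrophil markers had a median difference of -0.015 between genotypes.

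The LPS response of KO minus that of WT was then compared gene by gene. None of the 7 members differed by 1 or more on the log2 scale, against 2.46% of 11124 genes tested in either direction. Slfn9 had the largest difference, 0.57 (interval 0.37 to 0.78), with responses of 2.29 in KO and 1.71 in WT, and its interval was the only one of the 7 to exclude 0, as that of 10.1% of all genes tested did on the higher side. The whole of this difference lay at 0 h, since the level at 3 h was 33.4 and 33.5 FPKM. The other 6 had intervals that included 0: 0.14 for Slfn8 (-0.083 to 0.37), 0.12 for Slfn4 (-0.11 to 0.34), 0.051 for Slfn5 (-0.068 to 0.17), 0.017 for Slfn3 (-0.27 to 0.31), -0.062 for Slfn2 (-0.15 to 0.023) and -0.14 for Slfn1 (-0.42 to 0.13). These intervals do not show that the responses were equal, and those of Slfn8 and Slfn4 reach 0.37 and 0.34 in favour of KO. The neutrophil markers had a median of -1.20 on this measure, with 7 of 10 past the size rule as lower, against 1.51% of genes tested.

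Slfn8 and Slfn10-ps were each listed as 2 transcripts, and the division between them differed between libraries. The Slfn8 entry NM_001167743 has 4 exons and 1221 coding bases, and NM_181545 has 6 exons and 2730. NM_001167743 was at 1.52, 58.8, 1.64 and 52.6 FPKM in the order WT 0 h, WT 3 h, KO 0 h, KO 3 h, and NM_181545 at 2.18, 38.6, 1.58 and 44.0. At 3 h the shorter form was the higher in both genotypes, at 60.4% of the gene's level in WT and 54.5% in KO. At 0 h it made up 41.1% in WT and 51.0% in KO, where the intervals of both forms overlapped. The short form rose 38.8-fold in WT and 32.1-fold in KO, and the full form 17.7-fold and 27.9-fold.

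For the pseudogene Slfn10-ps the gene level was nearly equal between genotypes while the entries changed places. NR_073523 was at 0.92 FPKM (WT, 0 h; 0.65 to 1.20), 2.97 (WT, 3 h; 2.44 to 3.52), 3.09 (KO, 0 h; 2.67 to 3.51) and 6.67 (KO, 3 h; 6.04 to 7.32). NR_073524 was at 3.97 (WT, 0 h; 3.47 to 4.46), 9.16 (WT, 3 h; 8.29 to 10.0), 1.80 (KO, 0 h; 1.45 to 2.16) and 4.41 (KO, 3 h; 3.87 to 4.95). NR_073524 thus led in both WT libraries and NR_073523 in both KO libraries, with NR_073523 at 18.8% and 24.5% of the gene in WT and 63.2% and 60.2% in KO. Of 2644 genes with 2 or more entries and FPKM of at least 1 in all 4 libraries, 59 (2.23%) had a leading entry that changed with genotype at both times, and in 19 (0.719%), Slfn10-ps among them, the leading entries were also apart in all 4 libraries. This gene was picked out after its values were seen.

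**Figure D4:**
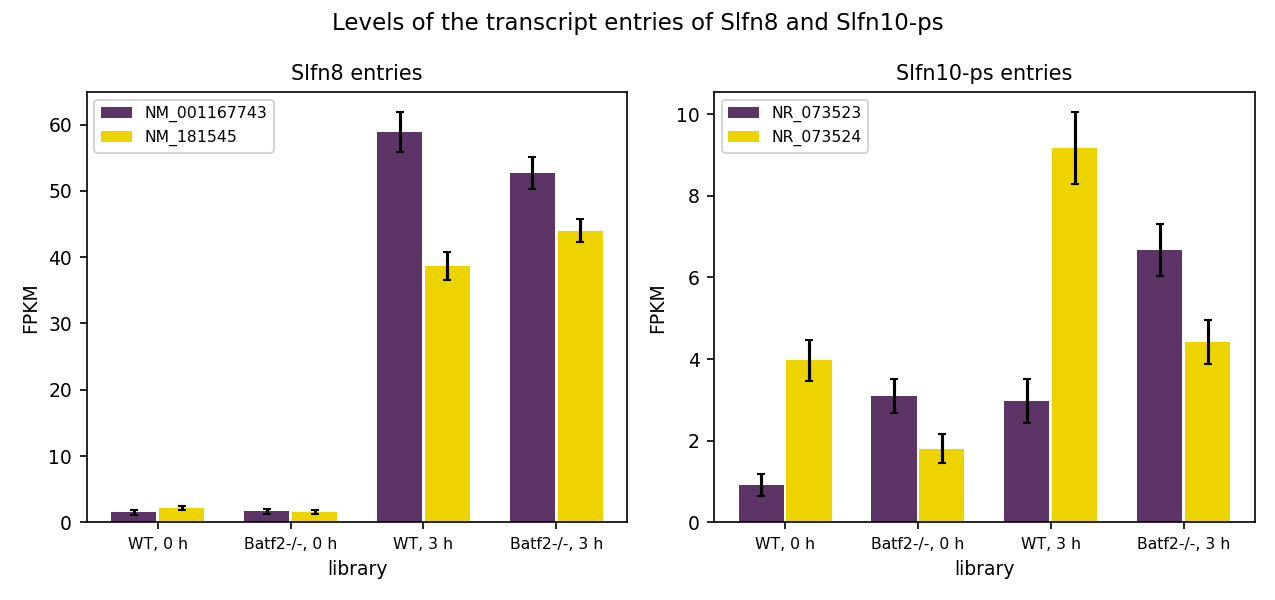
FPKM of the 2 transcript entries of Slfn8 (left) and of the pseudogene Slfn10-ps (right) in the 4 libraries, with bars for the 95% interval of counting error. In Slfn10-ps the yellow entry NR_073524 is the taller in both WT libraries and the purple entry NR_073523 in both Batf2-/- libraries. In Slfn8 NM_001167743 is the taller at 3 h in both genotypes.

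How the authors' software divided reads between such near copies sets a limit on these values. Of all stretches of 50 bases in the transcripts, 23.7% of those of Slfn3 also occur in a transcript of another gene, 14.3% in Slfn4. The share was 15.4% for the full form of Slfn8, 11.4% for Slfn9 and 19.7% for Slfn10-ps (NR_073523), which shared most with each other, and 11.9% for Slfn4 (NM_001302559). It was 4.27% for Slfn2, 3.59% for Slfn5 and 0.61% for Slfn1. With stretches of 100 bases the shares fell to 5.42% for Slfn3, 3.90% for Slfn9 and 7.84% for Slfn10-ps. The ends of the Slfn9 transcript used differed from those of its FPKM entry by 1913 bases, and the effect on its shares was not measured. The read length is not given in the sources used here, so the split between Slfn3 and Slfn4, and between Slfn8, Slfn9 and Slfn10-ps, is uncertain by an amount that was not measured, and those of Slfn1, Slfn2 and Slfn5 are less exposed to it. Noncoding genes overlap Slfn2 (Gm20234) and Slfn1 (Gm51911) in the RefSeq annotation. The library kit kept the strand, but whether the strand was used in computing FPKM is not given in the sources used here.

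Along the chromosome, the Schlafen genes rose and most of the measured genes around them did not, as was the case for most genes tested. Over all genes tested, 7.55% passed the size rule as higher in WT and 7.85% in KO, with median differences of -0.54 and -0.64. From the start of the Slfn5 entry to the end of Slfn14 the cluster spans 335 kb (chr11:82952102-83286726). Within it AI662270, a long noncoding RNA between Slfn3 and Slfn14, was at 66.9 FPKM (WT, 0 h), 74.8 (WT, 3 h), 76.7 (KO, 0 h) and 78.2 (KO, 3 h), and its log2 difference after LPS was 0.16 in WT and 0.028 in KO. The microRNA gene Mir7679, inside Slfn9, was listed at 0. Of the 5 protein-coding genes on the Slfn5 side, Rffl, an E3 ubiquitin ligase, was the only one past the size rule as higher. In WT it went from 8.45 to 19.5 FPKM, and in KO from 7.52 to 28.6 FPKM. Rad51d, a DNA repair gene, differed by -0.96 in WT and -0.80 in KO. Nle1, a ribosome assembly gene, differed by -0.93 and -1.23, the latter past the size rule as lower, as were 28.0% of genes tested in KO. Fndc8 and Unc45b were at or near 0. On the other side Ap2b1, a clathrin adaptor subunit, differed by 0.039 and 0.13 and 1700020L24Rik by -0.82 and -0.98. Rasl10b and Gas2l2 were at or near 0.

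**Figure D5:**
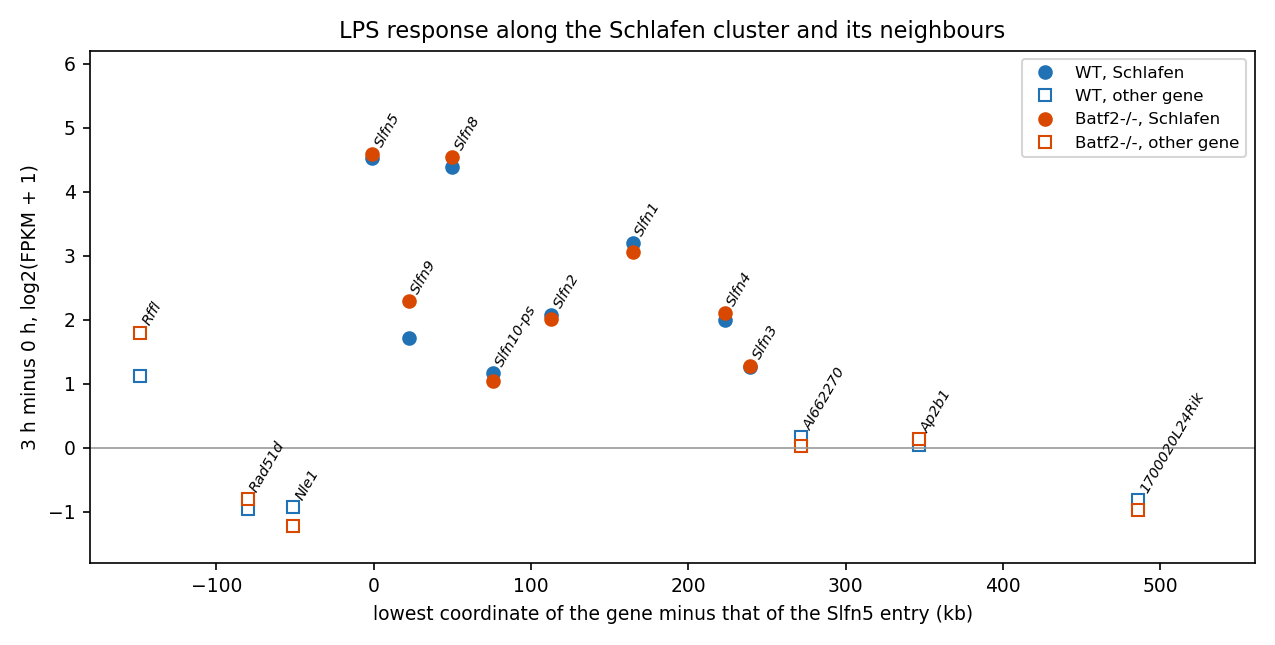
Difference of log2(FPKM + 1) between 3 h and 0 h of LPS against position on chromosome 11, as the lowest coordinate of each gene minus that of the Slfn5 entry in kb, for Schlafen genes (filled circles) and other genes (open squares) in WT (blue) and Batf2-/- (orange). Genes below 1 FPKM in all libraries and genes not reported here are not drawn. The 7 members and Slfn10-ps lie above 1, and of the other genes drawn Rffl alone does.

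Since the family is known as interferon-inducible, the genes of interferon signalling are given beside it. Ifnb1, which encodes interferon-β, was at 0.068 and 19.5 FPKM in WT and was listed at 0 and at 20.6 in KO, at 0 h and 3 h. Of 12 genes of type I interferon production and signalling, 7 passed the size rule as higher after LPS in WT and none as lower. In KO 7 passed as higher and 1, Irf3, as lower. The median difference was 1.91 in WT and 2.17 in KO. Among all genes tested, 7.55% passed as higher and 23.2% as lower in WT, and 7.85% and 28.0% in KO. Stat2 and Irf9, which belong to the complex that binds the ISRE, rose in both genotypes. In WT Stat2 went from 16.4 to 86.0 FPKM and Irf9 from 11.3 to 33.6. In KO Stat2 went from 12.4 to 96.2 FPKM and Irf9 from 11.4 to 33.4. Irf7, which amplifies interferon production, was at 1.51 and 92.0 FPKM in WT and at 1.40 and 103 in KO. Of 9 genes of IFN-γ signalling 6 passed as higher and 1, the receptor gene Ifngr1, as lower in each genotype, beside the same shares. Irf1, a first-wave transcription factor of that pathway, was at 12.4 and 419 FPKM in WT and at 12.6 and 370.3 in KO.

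All 24 listed type I interferon-stimulated genes were higher after LPS in both genotypes, with a median log2 difference of 4.31 in WT and 4.73 in KO, where the 7 Schlafen members had 2.07 and 2.29. The lowest was Oas1a (1.79 in WT and 1.95 in KO) and the highest Oasl1 in WT (8.20) and Rsad2 in KO (8.42). Slfn5 and Slfn8 lay close to the median of this list and the other 5 members below it. Of 12 IFN-γ targets 11 passed as higher in WT, all but Ciita at 0.46, and 12 in KO, beside the same shares. Their medians were 5.21 and 5.49. Between genotypes at 0 h, 0 of 20 interferon-stimulated genes and 0 of 8 IFN-γ targets tested passed the size rule, against 1.72% of genes tested. At 3 h 0 of 24 and 0 of 12 passed, against 1.47%. With no minimum size, 14 interferon-stimulated genes were higher in KO at 3 h with intervals apart and 1 was lower. Of the IFN-γ targets 3 were higher and 8 lower. Among all genes tested, 27.7% were apart in either direction. At 0 h the medians of KO minus WT were -0.11 over 20 interferon-stimulated genes above 1 FPKM and -0.34 over 8 IFN-γ targets, and at 3 h 0.17 and -0.19 over all 24 and 12, where the Schlafen median was 0.027. At 0 h the lowest values were -0.63 (Mx1) among the interferon-stimulated genes and -0.91 (Ciita) among the IFN-γ targets, beside the -0.57 of Slfn9.

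Each member's profile over the 4 libraries was also set beside those of 8065 genes with FPKM of at least 5 in a library. The measure was the distance between log2(FPKM + 1) profiles after each was centred on its own mean, and over 4 libraries it mostly ranks genes by the size of their LPS response. The nearest genes were Phf11d (0.069), Tasor2 and Thbs4 for Slfn1, Btla (0.028), Rmdn3 and Nfkbie for Slfn2, Psmb8 (0.044), Zbtb5 and Usb1 for Slfn3, and Plek (0.077), Cers6 and Mdfic for Slfn4. For the long forms they were farther away: Clec4e (0.23), Ubd and Ifit3b for Slfn5, Ifnb1 (0.14), Parp14 and Ly6i for Slfn8, and Serpinb9b (0.17), Jak2 and Nmi for Slfn9. Serpinb9b and Jak2 shared with Slfn9 a lower level in KO at 0 h, at 13.3 against 7.63 FPKM and at 53.1 against 37.9 FPKM. The 0 h values are part of the measure that picked these genes. Because 1 is added to each FPKM, genes near 0 at 0 h can match on this scale with a different fold. In WT Ifnb1 went from 0.068 to 19.5 FPKM, 289-fold, beside 26.4-fold for Slfn8. Btla went from 0.53 to 5.28 FPKM in WT, where Slfn2 rose 4.22-fold. Within the family the closest pairs were Slfn2 with Slfn4, at 0.14, and Slfn5 with Slfn8, at 0.30, and the farthest Slfn3 with Slfn5, at 3.30. Slfn8 and Slfn9, the pair most alike in sequence, were 2.48 apart.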

How the data were processed

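RNA-seq tables of 4 libraries, 1 per group, were analysed: FPKM for 33841 entries under 33324 RefSeq accessions, with a 95% interval and a status. Libraries were strand-specific and single-read, per the labels' protocols. Alignment with TopHat2 (with Bowtie and SAMtools) to mm9 and FPKM from Cufflinks are per the submitters' processing notes, with no version given in the sources used here, but the loci fit GRCm38 instead: 96.1% of 33437 entries named by accession lay inside their GRCm38 gene, so coordinates are given in that build.

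From the deposited FPKM, all entries were summed per gene symbol, without rescaling. A gene was tested only if all its entries had the status OK in the libraries compared. Half-widths of the intervals of several entries were combined in quadrature. Differences used log2(FPKM + 1), with a pseudocount of 1 and the size rule given in the report, over all genes. On simulated data with counting error only, the rule was checked. Promoter windows and names came from RefSeq, transcripts and exons from GENCODE M21. Python 3.11.15, pandas 2.3.3 and Biopython 1.88 were used. The genes named were the Schlafen genes, interferon regulators and list extremes, cluster neighbours and the 3 nearest profiles per member. Some genes that this rule names are left out here. The members, lists and rules were chosen with earlier results of these data known. The alternatives tried were pseudocounts of 0.1 and 5, an FPKM minimum of 5 or none, rescaled libraries, and the highest entry per gene.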

Additional observations from a re-analysis of the deposited data

How the results depend on the processing

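With 1 library per group, differences between cultures cannot be told from differences between groups, and depth limits only the counting error. No paired analysis was possible because each group holds 1 library. Under the alternatives run, 0 of 7 members passed the size rule between genotypes or between responses. After LPS 7 of 7 passed in both genotypes, except that with a pseudocount of 5 Slfn3 fell to 0.98 in each. Signs changed only for values that did not pass the size rule. With the highest entry alone Slfn8 went from -0.16 to 0.067 at 0 h (KO minus WT). Its response difference went from 0.14 to -0.23, so the direction for Slfn8 depends on the entry used. Rescaling gave 0.073 for Slfn8 at 3 h and 0.041 for the Slfn2 response difference, and a pseudocount of 5 gave -0.0013 for that of Slfn3.

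The counts over all genes moved more. In KO at 0 h the count was 144 higher and 42 lower, against 272 and 77 with a pseudocount of 0.1 and 48 and 16 with 5, 87 higher with FPKM of at least 5, and 116 lower with the highest entry alone. At 3 h 73 were higher and 71 lower, against 135 and 145 (pseudocount 0.1), 27 and 20 (pseudocount 5), 46 and 43 (FPKM of at least 5) and 147 and 153 (highest entry). After LPS 819 were higher and 2516 lower in WT, 1274 and 1058 rescaled, with 792 lower at a pseudocount of 5. In KO 860 were higher and 3065 lower, 1404 and 1103 rescaled, with 960 lower at a pseudocount of 5. For the response difference 106 were higher and 168 lower, against 179 and 340 (pseudocount 0.1), 57 and 77 (pseudocount 5) and 235 and 322 (highest entry).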
